A study of Sus scrofa with 10 samples.

Results

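A single unplaced scaffold of the pig genome, named AEMK02000489.1 in build Sscrofa11.1, held 29 of the 5946 lncRNAs listed for whole blood, or 0.488% of them. The members were every lncRNA listed on the same sequence as TCONS_00193537, wherever it lay on the scaffold and whatever its level. The scaffold itself had been picked because its transcripts stood among the highest of the table in FPKM, a read level scaled to transcript length and to the mapped fragments of the library. Their abundance is therefore given as a description, with no test. Of the 29, 22 had a mean of at least 10 FPKM over the libraries and 1 had a mean below 1 FPKM.

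The libraries came from whole blood of 10 female Qingyu pigs, with 2 pigs at each of 5 ages: D0 (newborn), D7, D28 (weaning), D180 and Y2 (2 years). Each library was a different animal, and no pig was followed over time. The study grouped its ages into a suckling period (D0, D7 and D28, 6 libraries) and a late period (D180 and Y2, 4 libraries). Its aim was to learn how the blood transcriptome develops after birth. Between the periods it ranked fold changes of mRNAs, and it tested lncRNAs only between adjacent ages inside a period. The tests here of D180 against D28 and of the late against the suckling period therefore have no counterpart among its lncRNA tests. No treatment or genotype separated the groups, and age was the difference that the labels give.

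A lncRNA is a transcript longer than a set minimum with no recognised coding potential, and many act in the nucleus on transcription, splicing or chromatin. An unplaced scaffold is assembled sequence that could not be assigned to a chromosome, and such scaffolds often hold repeated sequence, for which reads can match several copies. The genes of the large ribosomal RNAs lie in tandem repeats, where RNA polymerase I reads them as a common precursor that the nucleolus cuts and modifies. Globin transcripts of young red cells are usually abundant in whole blood, and ribosomal RNA was removed chemically from these libraries before sequencing. In blood as a whole, fewer cells of a type and less RNA per cell cannot be told apart.

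The 29 lncRNAs lay in 4 separate stretches, called loci 1 to 4 here in the order of their coordinates, and from the first to the last base they spanned 43096 nt. Locus 1, at AEMK02000489.1:8215-12429, held 7 overlapping lncRNAs, all on the minus strand. Locus 2, at AEMK02000489.1:48781-49395, held 16, with 8 on the plus strand (48781 to 49357) and 8 on the minus strand (49028 to 49395), which overlap in part. Locus 3, at AEMK02000489.1:50281-50335, held 2 on the minus strand, and locus 4, at AEMK02000489.1:51110-51310, held TCONS_00193513 on the plus strand, with 3 minus-strand lncRNAs inside its span. Loci 1 and 2 were separated by 36351 nt without a listed lncRNA, whereas the gaps from locus 2 to 3 and from 3 to 4 were 885 and 774 nt.

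The listed spans ran from 31 to 4215 nt, with a median of 255 nt. Although the study kept transcripts longer than 200 nt, 10 of the 29 spans (34.5%) were under 200 nt, compared with 1233 (20.7%) of all listed lncRNAs. The shortest was TCONS_00193545 of locus 3, with 31 nt, and the longest were TCONS_00193556 and TCONS_00193559 of locus 1, with 4215 nt each and identical ends. TCONS_00193557 and TCONS_00193558 were also listed with identical ends, so that the 29 lncRNAs had 27 distinct spans. The positions hold no exon limits, and how such transcripts differ inside their span is not known here. Members of a locus overlap each other, so that the division of reads among them was estimated by the quantification program.

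**Figure D1:**
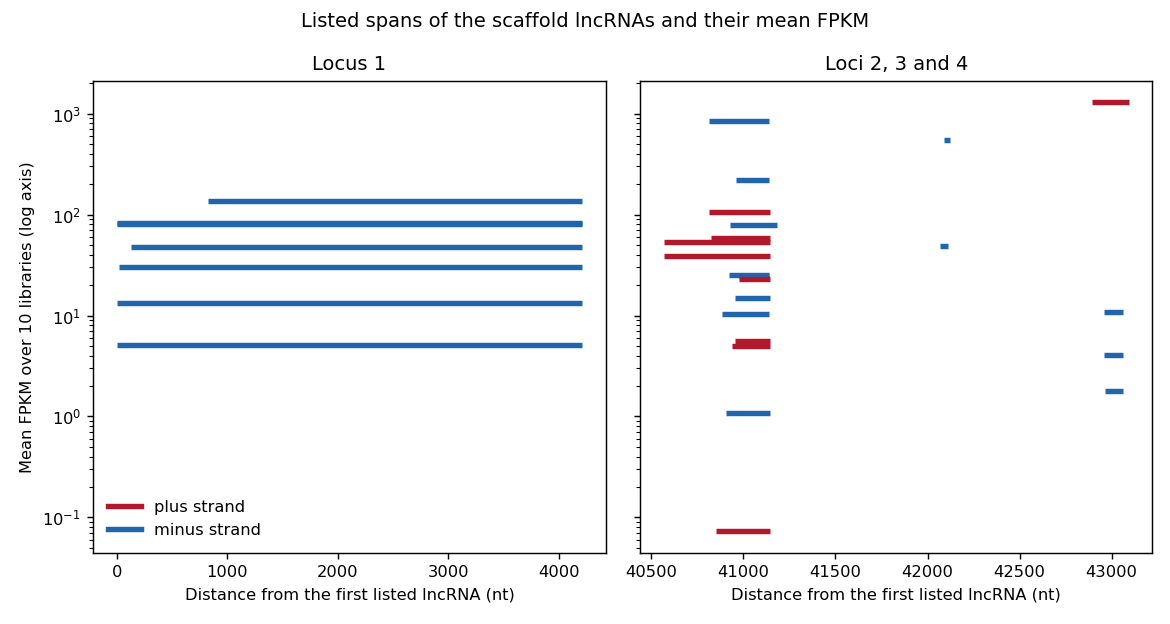
Each bar is 1 of the 29 lncRNAs, drawn at its listed span as distance in nt from the first listed base of the scaffold and at its mean FPKM over the 10 libraries on a log axis, in red for the plus strand and blue for the minus strand. Locus 1 is a stack of overlapping minus-strand spans, and the short spans of loci 2, 3 and 4 lie beyond a gap of 36351 nt, with TCONS_00193513 highest at a mean of 1291 FPKM.

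One annotated gene of the same scaffold was followed. The study's list of lncRNA and mRNA pairs places ENSSSCG00000038334, which it names pRNA, there, and annotation uses that name for an RNA of the ribosomal DNA promoter. In age order from D0 to Y2 its level was 0.310 ± 0.184, 0.155 ± 0.142, 1.04 ± 0.341, 2.05 ± 0.0202 and 0.552 ± 0.229 FPKM (mean ± SD, n = 2 pigs each). It was thus listed at a low level, on the same scaffold as lncRNAs of up to 3264 FPKM, and its distance from the loci is not given here. RefSeq lists the genes RN18S (42905 to 45206) and RN5-8S (46571 to 46726) for Sscrofa11.1 on a sequence given only as Unknown, a label that 2124 genes share, so whether they lie on this scaffold cannot be told from that table.

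The scaffold carried between 40.8% and 75.4% of the summed lncRNA FPKM of a library, with a median of 54.6%. In age order from D0 to Y2 the share was 48.3% ± 10.6, 54.6% ± 1.26, 62.5% ± 18.2, 44.3% ± 2.43 and 57.1% ± 0.854 (mean ± SD, n = 2). Both D180 pigs (46.1% and 42.6%) lay below the pigs of D7, D28 and Y2 and inside the range of D0 (40.8% and 55.8%). The range of D28 (49.6% and 75.4%) took in those of D7 and Y2, so that D28 did not differ from either beyond the spread between pigs. The D7 pigs (55.5% and 53.7%) lay below the Y2 pigs (57.7% and 56.5%). Of all listed lncRNAs, 9 of the 10 with the highest mean and 18 of the highest 30 were on the scaffold, and the highest lncRNA of every library was a member.

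The summed level of the 29 was 1035 and 1929 FPKM in the pigs of D0, 2327 and 2296 at D7, 2475 and 7291 at D28, 5857 and 5169 at D180, and 5171 and 4547 at Y2. The lowest sums were those of D0 and the highest single sum was in D28 pig 2, above all late libraries. The late mean was 1.79 times the suckling mean for the scaffold and 2.69 times for all other listed lncRNAs together. This direction turned on other scales between libraries. With each library scaled to the median ratio over the mRNAs the late mean was 0.579 times the suckling mean for the scaffold and 0.725 times for the others, and with the other lncRNAs set to one total it was 0.760 times for the scaffold. The sum over both kinds of transcript put the scaffold in proportion: it took a mean of 0.139%, 0.237%, 0.488%, 0.725% and 0.530% of the lncRNA and mRNA FPKM from the youngest age to the oldest.

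**Figure D2:**
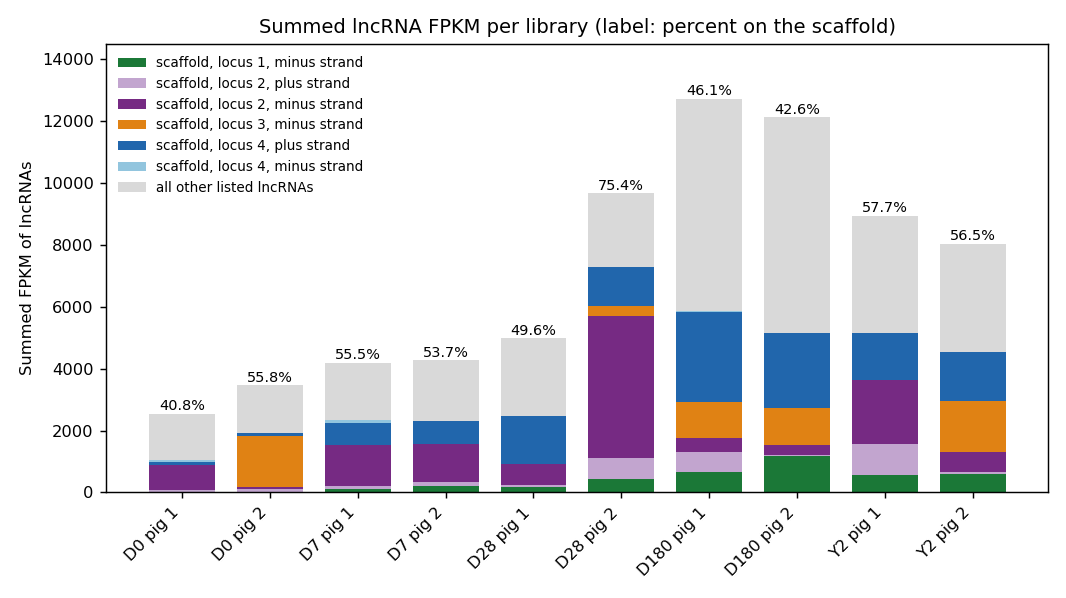
Stacked bars give the summed FPKM of the listed lncRNAs in each of the 10 libraries, with the scaffold divided by locus and strand in color and all other lncRNAs in grey, and the label above each bar is the percent on the scaffold. The scaffold share runs from 40.8% to 75.4%, and the pigs of D28 differ in the colored part while their grey parts are close.

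The pigs of D0 and D28 were close in the other lncRNAs and apart on the scaffold. At D28 the scaffold sums differed 2.95-fold, and the sums of all other lncRNAs differed 1.06-fold. In FPKM, the total of all lncRNAs differed by 4685 between these pigs and the scaffold differed by 4816 in the same direction, with D28 pig 2 higher. At D0 the corresponding ratios were 1.86-fold and 1.02-fold, with D0 pig 2 higher on the scaffold. That direction rested on TCONS_00193545, a span of 31 nt listed at 0 in D0 pig 1 and at 1643 FPKM in D0 pig 2. The sum of locus 2 went the other way, at 881 and 181 FPKM in these pigs. At D7, D180 and Y2 the scaffold sums of the pigs differed by 1.01-fold, 1.13-fold and 1.14-fold, beside 1.06-fold, 1.01-fold and 1.08-fold for the other lncRNAs, so that at D7 the pigs were closer on the scaffold.

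The scaffold sum was concentrated in few members. TCONS_00193513, TCONS_00193537 and TCONS_00193545 together made up 70.4% of the mean scaffold sum, and the 6 highest made up 82.5%. By locus and strand, the plus strand of locus 4 gave 33.9%, the minus strand of locus 2 31.9%, locus 3 15.8%, locus 1 10.4%, the plus strand of locus 2 7.60% and the minus strand of locus 4 0.441%. FPKM is a level per length, but for spans shorter than a sequenced fragment the length correction is large and uncertain. The spans of locus 3 (45 and 31 nt) are shorter than a single read, so its share and that of TCONS_00193545 rest on this correction. Levels of such short spans cannot be set safely beside those of the long members of locus 1.

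At the other end, values listed at 0 were frequent despite the high means. Of the 290 member values 114 (39.3%) were 0, compared with 24.7% for all other lncRNAs. Among lncRNAs with a mean of at least 10 FPKM, 31.4% of the values of the 22 members were 0, compared with 7.31% for the 26 others. Only 8 members were above 0 in all 10 libraries, and 7 exceeded 0.1 FPKM in at most 2 libraries. An FPKM of 0 can be an estimate that assigned all reads to an overlapping transcript, so it is given here as listed at 0.

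**Figure D3:**
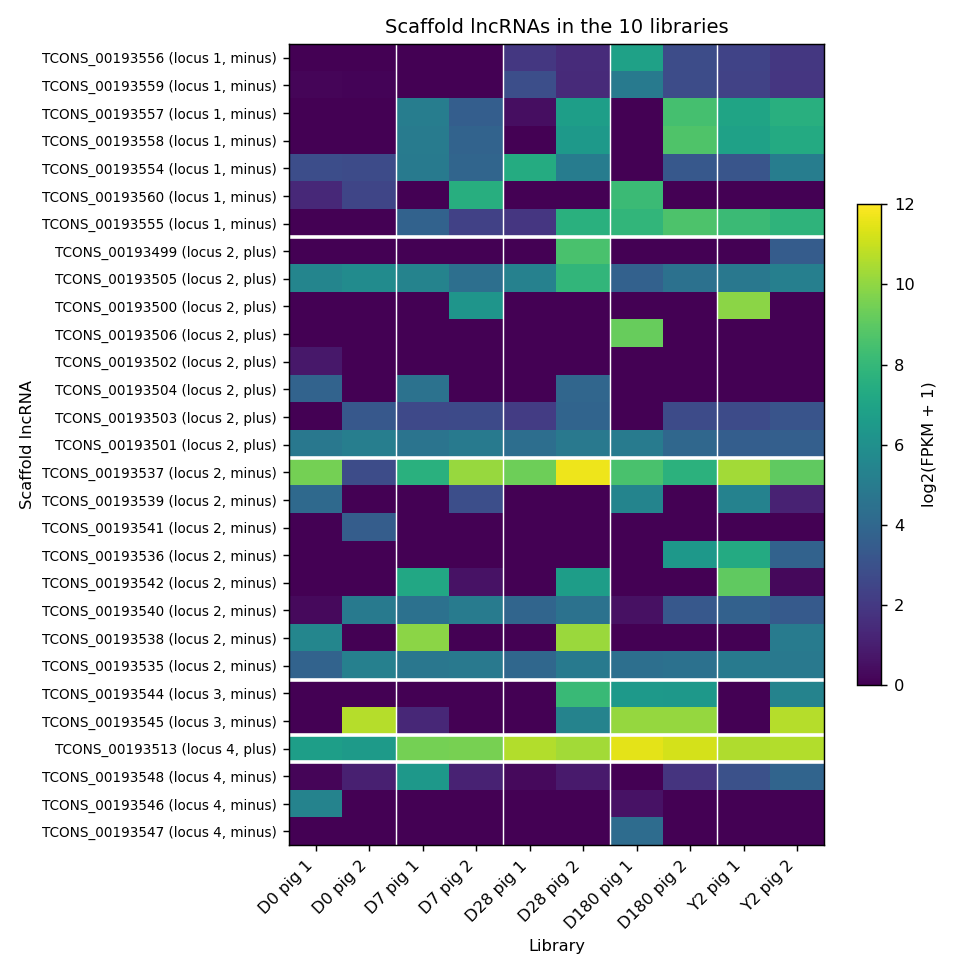
Each row is a scaffold lncRNA, grouped by locus and strand, each column is 1 of the 10 libraries, and color gives log2(FPKM + 1). TCONS_00193513 is bright in every library, with means from 99.2 FPKM at D0 to 2665 at D180, whereas most other rows switch between dark and bright among pigs of the same age, and 114 of the 290 cells are at 0.

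Locus 4 held the lncRNA with the highest mean of the table. TCONS_00193513 (AEMK02000489.1:51110-51310, plus strand, 201 nt) was at 106 and 92.8 FPKM in the pigs of D0, 713 and 741 at D7, 1547 and 1273 at D28, 2899.6 and 2431 at D180, and 1542 and 1569 at Y2. The pigs of each age lay close together, D0 was lowest and D180 highest, and the ranges of D0, D7 and D180 did not overlap those of any other age, while those of D28 and Y2 overlapped. The D180 mean was 26.9 times the D0 mean, and the D7 mean was 7.33 times the D0 mean.

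The steps of TCONS_00193513 were tested with limma on log2(FPKM + 1) across all listed lncRNAs, where a call needed both an adjusted p no higher than 0.05 and a log2 change of 1.5 or more in either direction. From D0 to D7 it differed by a log2 change of 2.86 (SE 0.82), with an adjusted p of 0.178 by limma, and so it was not called. The fit drew the spread of each lncRNA towards that of lncRNAs of like abundance, and 9 of the 10 most abundant were scaffold members, while its own spread between pigs (SD 0.135 on the log2 scale) was the lowest of the 29. Without that mean-variance trend, the same step was called with a limma adjusted p of 6.27e-05. Between the late and suckling periods it was higher by a log2 change of 2.12 (SE 0.53, limma adjusted p = 0.00833).

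That difference between periods depended on the scale. With each library scaled to the median ratio over the mRNAs, the means of TCONS_00193513 became 223, 1398, 1428, 906 and 976 in age order, and the log2 change between periods was 0.30 (limma adjusted p = 0.497). Scaled to one total of the lncRNAs outside the scaffold, it was 0.74 (limma adjusted p = 0.0929). The D0 pigs remained lowest on each of these scales, and from D28 to D180 the direction reversed, to -0.66 and -0.58. Leaving out 1 library of D0, D7, D28 or Y2 left log2 changes between periods of 2.07 to 2.17 with limma adjusted p between 0.0584 and 0.316, so that the call ended, and it was kept without either D180 library.

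The minus-strand lncRNAs inside the same span were a minor part of locus 4. Their sum ranged from 0.241 to 82.9 FPKM, highest in D7 pig 1, and TCONS_00193548 (109 nt) made up all of it in 8 libraries. TCONS_00193547 was above 0 in D180 pig 1 alone, at 17.9 FPKM. TCONS_00193546 reached 40.1 FPKM in D0 pig 1, stood at 0.525 in D180 pig 1 and was listed at 0 in the other 8 libraries.

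**Figure D4:**
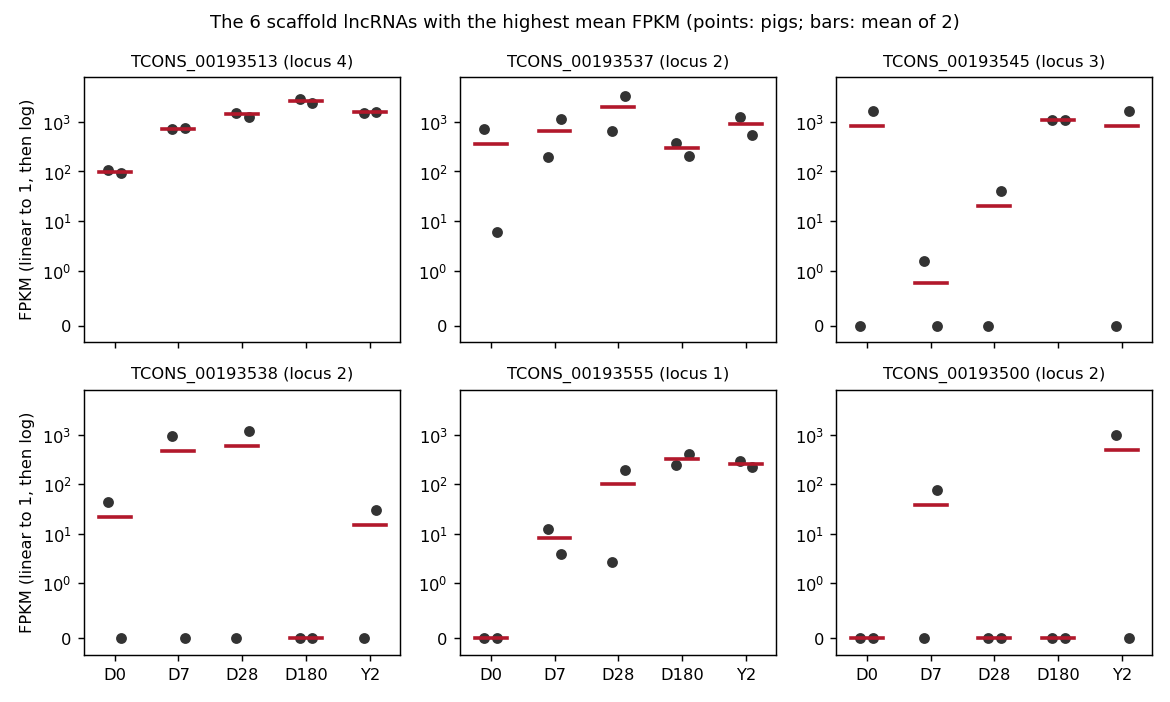
The 6 scaffold lncRNAs with the highest mean are shown by age, with 1 point for each pig and a bar at the mean of 2, on an FPKM axis that is linear to 1 and logarithmic above. The points of TCONS_00193513 nearly coincide within each age, from 99.2 FPKM at D0 to 2665 at D180, and those of TCONS_00193545, TCONS_00193538 and TCONS_00193500 lie at 0 in some pigs and at 975 FPKM or more in others.

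Locus 1 held the sum with the widest gap between the periods, since the sums of loci 2 and 3 overlapped and that of locus 4 was at most 1547 FPKM in the suckling period and at least 1549 in the late period. The 7 lncRNAs together stood at 7.86 and 10.3 FPKM at D0, 106 and 223 at D7, 177 and 425 at D28, 676 and 1177 at D180, and 551 and 607 at Y2. Every late library was above every suckling library, with the lowest late sum at 551 and the highest suckling sum at 425 FPKM, and the late mean was 4.76 times the suckling mean. On the scale of the median ratio over the mRNAs, the fold was 1.58, and the late sums (236 to 388) lay within the suckling range (18.0 to 437). The D0 pigs were the lowest on that scale too, with a mean of 20.3 against 312 at D7.

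Within locus 1 the level moved between overlapping transcripts. The highest member of the locus in a library was any of 5 different ones, and single members had an SD between pigs of an age of 0.828 to 3.53 on the log2 scale, compared with 0.593 for their sum. TCONS_00193557 and TCONS_00193558, the pair with identical ends, stood at 351 and 407 FPKM in D180 pig 2 and were both listed at 0 in D180 pig 1. In D180 pig 1 the highest members were TCONS_00193560, at 292 FPKM and listed at 0 in D180 pig 2, and TCONS_00193555, at 239 FPKM.

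TCONS_00193555 (AEMK02000489.1:9040-12429) was the highest of locus 1 in its mean. It was listed at 0 in both pigs of D0 and stood at 12.7 and 3.92 FPKM at D7, 2.68 and 195 at D28, 239 and 398 at D180, and 293 and 221 at Y2. It was the only member whose late libraries all lay above its suckling libraries (1 of 29, 3.45%), a pattern seen in 38.7% of all listed lncRNAs, and 0 members showed the opposite pattern, seen in 0.875%. TCONS_00193555 was separated in this way only in FPKM as listed. On both of the other scales between libraries its value in D28 pig 2 lay above every late value. By limma it was higher in the late period by a log2 change of 5.54 (SE 1.01, adjusted p = 0.0018), and it was called under all 17 alternatives tried, with log2 changes of 4.14 to 6.78.

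The other called members of locus 1 took different courses. TCONS_00193556 stood at 0.0097 FPKM in D0 pig 1, at 0 in D0 pig 2 and both D7 pigs, at 2.80 and 1.77 at D28, 116 and 5.97 at D180 and 4.25 and 2.79 at Y2. Its twin in position, TCONS_00193559, stood at 0.114 and 0.0691 at D0, 0 in both D7 pigs, 6.41 and 1.68 at D28, 29.6 and 6.01 at D180 and 4.11 and 2.77 at Y2. Both were called higher in the late period, at log2 changes of 2.93 (SE 0.70, limma adjusted p = 0.00684) and 2.24 (SE 0.44, limma adjusted p = 0.00272). With the median-ratio scale neither was called (limma adjusted p of 0.0736 and 0.0714).

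The mean of TCONS_00193554 was highest at D28, whereas those of the other members of locus 1 were highest at D180. This rested on D28 pig 1, since D28 pig 2 lay below Y2 pig 2. TCONS_00193554 was at 6.13 and 5.60 FPKM at D0, 29.3 and 14.2 at D7, 165 and 31.5 at D28, 0.00677 and 8.90 at D180 and 8.03 and 32.6 at Y2. Both D28 pigs were above both D180 pigs, and limma called it lower at D180 than at D28, by a log2 change of -4.54 (SE 1.20, adjusted p = 0.0129). Without D28 pig 1 or without D180 pig 1 the limma adjusted p was 0.106 and 0.0951. TCONS_00193556 was called in the opposite direction in that step, with a log2 change of 3.14 (SE 1.08, limma adjusted p = 0.0382), which fell to 1.10 without D180 pig 1. This call held in 5 of 17 alternatives and ended on both rescalings, at log2 changes of 1.76 and 1.88 (limma adjusted p of 0.368 and 0.289), with only these ages fitted (0.24), and without any single library of D0, D7, D28 or Y2 (0.0805 to 0.171).

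Locus 2 packed 16 lncRNAs into 615 nt on both strands. On the minus strand the sum was 798 and 83.2 FPKM at D0, 1332 and 1201 at D7, 690.2 and 4596 at D28, 439.8 and 321 at D180, and 2051.5 and 626 at Y2. On the plus strand it was 83.5 and 98.2 at D0, 91.2 and 130.4 at D7, 60.7 and 675 at D28, 629.5 and 42.3 at D180, and 1019 and 64.2 at Y2. The minus strand was the higher strand in 8 of 10 libraries, and the late and suckling ranges overlapped on each strand. Summing did not remove the spread here, with an SD between pigs of 1.46 for the minus strand and 2.07 for the plus strand on the log2 scale.

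TCONS_00193537 (AEMK02000489.1:49028-49354, minus strand) led locus 2 and was second in the table. It stood at 724 and 5.99 FPKM in the pigs of D0, 192 and 1135 at D7, 661 and 3264 at D28, 378 and 208 at D180, and 1273 and 543 at Y2. The pigs of D0 differed 121-fold, and D28 pig 2 held the highest value of any member. No age stood apart from the others, and the limma log2 change between periods was 0.40 (SE 1.35, adjusted p = 0.794).

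TCONS_00193538 and TCONS_00193500 of locus 2 were high in few pigs. TCONS_00193538 (184 nt, minus strand) stood at 44.3 FPKM in D0 pig 1, 948 in D7 pig 1, 1177 in D28 pig 2 and 30.7 in Y2 pig 2, and was listed at 0 in the other 6 libraries. TCONS_00193500 (332 nt, plus strand) stood at 76.0 FPKM in D7 pig 2 and 975 in Y2 pig 1, at 0.00427 in D7 pig 1 and 0.0011 in D28 pig 2, and at 0 in the other 6 libraries. Wherever either was abundant in a pig, the other pig of that age was listed at or near 0.

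Other members of locus 2 were listed above 10 FPKM in 1 to 3 libraries. TCONS_00193506 stood at 586 FPKM in D180 pig 1 and at 0 in the 9 other libraries, and TCONS_00193541 at 10.7 FPKM in D0 pig 2 and at 0 in the 9 others. TCONS_00193499 was at 380.0 FPKM in D28 pig 2 and 10.2 in Y2 pig 2. TCONS_00193542, the member that reaches furthest towards locus 3, was at 145 FPKM in D7 pig 1, 102 in D28 pig 2 and 542 in Y2 pig 1, and at most 0.502 elsewhere.

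A few lncRNAs of locus 2 were above 10 FPKM in every library. TCONS_00193535 (164 nt, minus strand) ranged from 12.9 to 36.9 FPKM, with a median of 26.9. TCONS_00193501 (167 nt, plus strand, from the same first base) was at 26.7 and 34.6 FPKM at D0, 23.8 and 28.7 at D7, 19.4 and 27.8 at D28, 31.0 and 15.3 at D180, and 10.8 and 11.4 at Y2. The Y2 pigs were the lowest of the 10. By limma it was lower in the late period by a log2 change of -0.72 (SE 0.23, adjusted p = 0.025), under the size required for a call.

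TCONS_00193505 (AEMK02000489.1:48786-49357, plus strand) was the other plus-strand member of locus 2 above 10 FPKM in every library. It was at 42.8 and 54.7 FPKM at D0, 39.8 and 20.2 at D7, 37.8 and 239 at D28, 12.4 and 21.4 at D180 and 27.4 and 34.9 at Y2. The D28 pigs were both above the D180 pigs, and limma called it lower at D180 than at D28, by a log2 change of -2.48 (SE 0.80, adjusted p = 0.0293). The call held in 7 of 17 alternatives. Without D28 pig 2 the log2 change was -1.17 (limma adjusted p = 0.11), and the call also ended with only these ages fitted (limma adjusted p = 0.183) and without any single library of D0, D7, D180 or Y2 (0.0525 to 0.161).

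TCONS_00193536 (221 nt, minus strand) was found in late libraries alone. It was listed at 0 in all 6 suckling libraries and in D180 pig 1, and stood at 82.6 FPKM in D180 pig 2 and at 158 and 12.9 in the pigs of Y2. Since it entered the table of lncRNAs over 0.1 FPKM through its late libraries alone, it had to differ between the periods, and its limma call is counted below without being read as a result.

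Locus 3 was either abundant or nearly absent. The sum of TCONS_00193544 (45 nt) and TCONS_00193545 (31 nt) was 0.0162 and 1643 FPKM at D0, 1.57 and 0 at D7, 0 and 322 at D28, 1193 and 1195 at D180, and 0.0027 and 1668 at Y2. In 5 libraries the sum was 322 FPKM or more and in the other 5 it was at most 1.57 FPKM, and the pigs of D0, D28 and Y2 fell on opposite sides. In D0 pig 2 this locus alone was 85.2% of the scaffold sum.

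TCONS_00193545 (AEMK02000489.1:50305-50335) carried most of it. It stood at 0 and 1643 FPKM in the pigs of D0, 1.57 and 0 at D7, 0 and 40.5 at D28, 1105 and 1110.1 at D180, and 0 and 1628 at Y2. The pigs of D180 agreed closely, and at D0 and Y2 one pig was listed at 0 and the other at 1628 FPKM or more. Its SD between pigs of an age, 5.09 on the log2 scale, was the highest of all listed lncRNAs, and limma gave a log2 change between periods of 4.82 (SE 2.71, adjusted p = 0.156).

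The spread between pigs of an age set the scaffold apart from the rest of the table in these libraries. On the log2(FPKM + 1) scale the SD within ages had a median of 1.89 over the 29 members (0.135 to 5.09) and 0.128 over the 5917 other lncRNAs. Of the members, 25 lay above 0.704, the 99th percentile of the others, and 11 lay above 2.65, the highest of the others. Among lncRNAs with a mean of at least 10 FPKM, the medians were 2.55 for the 22 members and 0.224 for the 26 others, of which the highest reached 2.64. In 16 members a pig was listed at 0 while the other pig of its age exceeded 10 FPKM, which was seen in 6 of the 5917 others. Few of the others could show this, since only 26 of them had a mean of at least 10 FPKM. This contrast is a description, since the scaffold was picked from these levels.

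**Figure D5:**
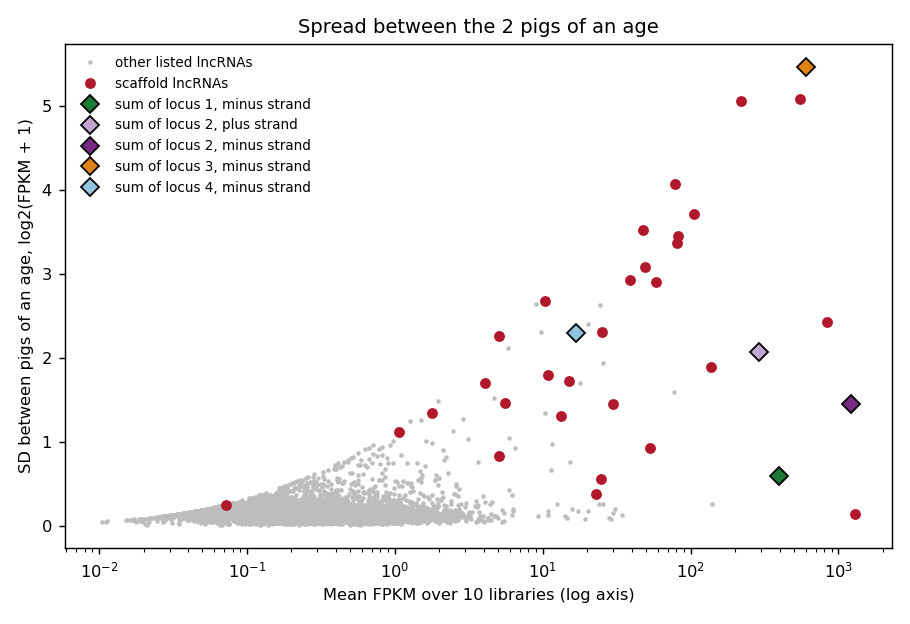
Each point is a listed lncRNA, with its mean FPKM over the 10 libraries on a log axis and the SD between the pigs of an age on the log2(FPKM + 1) scale, in red for the 29 scaffold lncRNAs and grey for the others, and diamonds are sums over a locus and strand. Most red points lie above the grey cloud, TCONS_00193513 lies at the far right at 0.135, and the sum of locus 1 lies at 0.593, below each of its members.

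Few members passed the limma test from one age to the next. Between D7 and D0, 0 of the 29 were called, against a background of 0.118% of all lncRNAs called higher and 0.219% lower (0.875% and 0.992% by the adjusted p alone), and 1 member had an unadjusted p under 0.05. Between D28 and D7, 0 were called (background 0.202% higher and 0.118% lower, or 4.24% and 1.01% by the adjusted p alone), and 1 had an unadjusted p under 0.05. Between Y2 and D180, 0 were called (background 0.101% higher and 0.605% lower), and 3 had an unadjusted p under 0.05. By the adjusted p alone this last step also had 0 members, against 3.11% of all lncRNAs higher and 43.3% lower. With the size limit, 0 of 29 is near these backgrounds and is no result about the members.

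Between D180 and D28 limma called 1 member higher (TCONS_00193556) and 2 lower (TCONS_00193505 and TCONS_00193554). The background was 3.63% higher and 0.387% lower. By the adjusted p alone, the same step had 1 member higher against 55.8% of all lncRNAs and 2 lower against 2.79%, and the median log2 change was 0.30 for the members and 0.45 for all. On the median-ratio scale the step had 0 members higher and 2 lower, beside 4 higher and 32 lower of all lncRNAs, and with the lncRNAs outside the scaffold set to one total 0 and 3, beside 12 and 37.

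Between the late and suckling periods 5 members were called higher and 0 lower. They were TCONS_00193513, TCONS_00193536, TCONS_00193555, TCONS_00193556 and TCONS_00193559, against a background of 1.77% higher and 0.269% lower. By the limma adjusted p alone, 5 members were higher against 62.3% of all lncRNAs, and 1, TCONS_00193501, was lower against 3.72%. The median log2 change was 0.40 for the members and 0.36 for all. Without TCONS_00193536, which entered the table through its late libraries alone, 4 remain. Of the 5, 3 share locus 1 and therefore reads, and they are not independent of each other.

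Which members were called depended on the scale between libraries. The 5 called higher kept positive log2 changes, of 0.30 to 4.14 on the median-ratio scale. With the lncRNAs outside the scaffold set to one total these were 0.74 to 4.58. The lower calls were of other members. On the median-ratio scale 2 members were higher (TCONS_00193536 and TCONS_00193555) and 4 lower (TCONS_00193501, TCONS_00193505, TCONS_00193535 and TCONS_00193554), and the median log2 change of all lncRNAs moved from 0.36 to 0.07. Over all 5946 lncRNAs the calls turned as well, from 105 higher and 16 lower to 6 higher and 46 lower. With the lncRNAs outside the scaffold set to one total, 4 members were higher and 3 lower, beside 14 higher and 42 lower of all lncRNAs. TCONS_00193536, called higher on both of these scales, entered the table through its late libraries alone and is not read as a result. The calls also moved when D180 pig 2 or Y2 pig 1 was left out.

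The other unplaced scaffolds with at least 5 listed lncRNAs and the mitochondrial genome carried far less, and the numbered chromosomes were not compared one by one. The highest of these was the unplaced scaffold AEMK02000695.1, whose 9 lncRNAs took a mean of 3.73% of the summed lncRNA FPKM (0.370% to 6.30%) and included the only lncRNA among the highest 10 outside the members, TCONS_00195430. The 22 lncRNAs of AEMK02000452.1 took 0.173%, and the 9 of the mitochondrial genome took 0.300%. Values at 0 made up 30% of the entries for AEMK02000695.1, 9.55% for AEMK02000452.1 and 52.2% for the mitochondrial genome, compared with 39.3% here.

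Genes of ribosomal RNA synthesis and of blood cell types gave the setting in which these lncRNAs were measured. Of 22 genes of RNA polymerase I and rRNA processing (such as UBTF, NPM1 and FBL), all 22 were higher in the late period by the limma adjusted p, against 92.7% of all mRNAs, and 5 were called with the size limit, against 23.2%. Their summed level was 62.3, 69.0, 146, 402 and 216 FPKM in age order. All 12 genes of the RNA exosome, which trims and degrades nuclear RNA, were also higher by the adjusted p, and 0 of them reached the size limit. The median log2 change was 1.32 in each of these lists and 1.11 over all mRNAs. These levels and tests are of FPKM as listed, and the lists were not tested on the other scales between libraries. The median-ratio factor ran from 0.437 in D0 pig 1 to 3.03 in D180 pig 2.

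The erythroid list moved the other way. All 5 of its listed genes were lower in the late period by the limma adjusted p (background 3.67%), of which 3 were called with the size limit (background 0.518%). Their sum in age order was 477388 ± 1488, 420749 ± 11496, 336436 ± 16713, 124006 ± 15959.5 and 259151 ± 32389 FPKM (mean ± SD, n = 2), almost all of it HBB, a globin gene, and it was at least 112721 FPKM in every library, as befits blood. Of the other cell type lists, 3 of 4 T cell genes, 3 of 3 B cell genes, 2 of 3 neutrophil genes, 2 of 2 monocyte genes and 0 of 2 platelet genes were called higher, against 23.2% of all mRNAs. The cell type lists, too, were tested on FPKM as listed alone, so how far their changes follow the scale between libraries is not known here. The part of the globin share and of cell composition in the late level of the scaffold lncRNAs was not tested.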

How the data were processed

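Whole blood RNA of 10 pigs was depleted of rRNA and sequenced as strand-specific libraries. Per the labels, the authors used CASAVA 1.8.2, HISAT2 2.0.4, StringTie 1.3.3 and Cufflinks 2.2.1 with Sscrofa11.1, and deposited FPKM values for 5946 assembled lncRNAs and 12354 mRNAs. Every listed lncRNA exceeded 0.1 FPKM in at least 1 library, and every mRNA exceeded 0.5 FPKM. FPKM divides by transcript length and mapped fragments. How reads matching repeated copies were treated is not given in the sources used here, and the depth of single values is unknown, so no counting interval is given. The number of pigs limits precision. The p-values reflect the spread between these pigs, which the fit drew towards that of lncRNAs of like abundance.

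The members and all gene lists were chosen with earlier results of these data known. All members could be named, with values in every library for the 6 highest means and for called members, and outside genes came from the fixed lists or the scaffold. Values were tested as log2(FPKM + 1) with limma 3.58.1 in R 4.3.3, with a mean-variance trend, all 5 ages in the fit and Benjamini-Hochberg adjustment over all lncRNAs. Fold changes on this scale understate changes at low values. On simulated data for D7 against D0, 200 of 200 lncRNAs changed by a log2 of 3 were recovered, with 0 false calls. The simulated spread between pigs was capped below that of most members, so this recovery does not speak for them. Symbols were matched for 9735 of 12354 mRNAs. Sums and shares were computed in Python 3.11.15 with pandas 2.3.3. Alternatives were another pseudocount, a filter of at least 1 FPKM in 2 libraries, both rescalings, no trend, the compared ages alone, a replicate block and leaving out each library. No transcript or genome sequence was used here.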

Additional observations from a re-analysis of the deposited data

How the results depend on the processing

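With 2 pigs an age, counts of called scaffold lncRNAs were small and moved by single calls. Between D7 and D0 the count rose from 0 to 1 with the filter at 1 FPKM, without the mean-variance trend, on the median-ratio scale and with the other lncRNAs set to one total, each time TCONS_00193513 (limma adjusted p of 0.000369, 6.27e-05, 0.0148 and 0.0282). Between D28 and D7 it rose to 2 with a pseudocount of 0.1, and between D180 and D28 it fell from 3 to 0 when only these ages were fitted. Leaving out 1 library gave 0 to 1 calls between D7 and D0, 0 to 3 between D28 and D7, 1 to 5 between D180 and D28, 0 to 6 between Y2 and D180 and 3 to 8 between the periods. For D7 against D0 the highest count came without either D0 pig or without D7 pig 2. In the other comparisons it came without D28 pig 1 or without D180 pig 2. The lowest count between the periods came without Y2 pig 1. Where an age kept 1 library, that library was assumed to vary like the others. TCONS_00193506 and TCONS_00193547 were above 0 in D180 pig 1 alone. Without D180 pig 2 no spread was left for them, so that their calls there were fixed in advance. TCONS_00193513 reversed from D28 to D180 on both rescalings (-0.66 and -0.58) and from D180 to Y2 (0.12 and 0.15), never called. The lower call of TCONS_00193554 at D180 ended when only these ages were fitted (limma adjusted p = 0.124). The cause of these shifts was not tested.

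The pig numbers did not pair the libraries, since each library is a different animal and the correlation of same-numbered deviations ran from -0.271 to 0.146 over 10 pairs of ages. With the replicate block the count between Y2 and D180 was 1 in place of 0, and no other count moved by over 1.5 times.

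Without TCONS_00193513 the scaffold share was 45.2% at D7, 29.2% at D180 and 47.5% at Y2, and D0 and D28 moved by less than the spread between pigs. Over lncRNA and mRNA together the shares were 0.139%, 0.237%, 0.488%, 0.725% and 0.530% from D0 to Y2. Sums of overlapping members were steadier than single members in locus 1 and not in locus 3.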
